A study of Mus musculus with 13 samples.

Results

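Marker genes of the medial septum and the cholinergic basal forebrain were followed through bulk RNA sequencing of the mouse hippocampus. The set was 9 genes of the 56980 in the count table, named from knowledge of these regions and chosen with the raw counts of all 13 libraries in view. For description, 5 were taken as cholinergic genes (Chat, Slc5a7, Slc10a4, Lhx8 and Isl1) and 4 as other septal genes (Zic1, Zic4, Ecel1 and Ret). The 6 control libraries came from AppNL-G-F mice with the Lpcat3 f/f allele and no Cre, which the labels call WT. The 7 knockout libraries came from mice with both alleles and the vav1-CRE transgene. All 13 samples are labelled as hippocampus of male mice aged 9 months, and tamoxifen by gavage (a 20 mg/ml solution at 0.2 mg per g body weight) is stated for both groups. AppNL-G-F places disease mutations in the mouse App gene itself, and its carriers form amyloid plaques. Lpcat3 encodes the acyltransferase that places arachidonic acid into membrane phospholipids. The vav1 promoter drives Cre in blood-forming cells and their descendants, and because the controls lack Cre, effects of Cre and of Lpcat3 deletion cannot be told apart. Whether every library stands for its own mouse is not stated, so p-values measure only the spread between these samples, which may be technical. Nor do the labels say whether deletion depended on tamoxifen.

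The medial septum and the diagonal band send cholinergic and GABAergic axons to the hippocampus through the fimbria and fornix. Their cholinergic neurons make acetylcholine with choline acetyltransferase and take choline back up at the terminal. The cell bodies, which hold most of the messenger RNA, lie in the septum, so hippocampal tissue is known to hold little of these transcripts. Zic1 and Zic4 encode zinc finger transcription factors expressed in the septum and also in the thalamus, the cerebellum and the meninges, so that they mark more than septal neurons.

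Of the 9 genes, 8 had an entry in the RefSeq promoter table (GRCm38.p6), whose windows run from 250 bases before to 50 after the start site. The entries shown, 5′ to 3′ on the gene's strand, are those of Zic1 and Zic4, neighbours on opposite strands that varied together most closely of all pairs, and of Slc10a4 and Chat, cholinergic genes whose levels parted from each other across libraries. They lie at chr9:91365719-91366018 (minus strand), chr9:91368722-91369021 (plus), chr5:73006654-73006953 (plus) and chr14:32465860-32466159 (minus). Capitals mark a match to CAGCAGG, a core recognised by ZIC zinc fingers.
Zic1: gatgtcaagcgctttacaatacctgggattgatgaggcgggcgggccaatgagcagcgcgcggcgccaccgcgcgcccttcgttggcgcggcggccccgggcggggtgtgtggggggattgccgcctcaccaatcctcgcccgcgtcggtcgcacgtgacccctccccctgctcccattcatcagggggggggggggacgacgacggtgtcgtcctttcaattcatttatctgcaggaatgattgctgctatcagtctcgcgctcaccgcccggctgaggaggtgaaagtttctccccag
Zic4: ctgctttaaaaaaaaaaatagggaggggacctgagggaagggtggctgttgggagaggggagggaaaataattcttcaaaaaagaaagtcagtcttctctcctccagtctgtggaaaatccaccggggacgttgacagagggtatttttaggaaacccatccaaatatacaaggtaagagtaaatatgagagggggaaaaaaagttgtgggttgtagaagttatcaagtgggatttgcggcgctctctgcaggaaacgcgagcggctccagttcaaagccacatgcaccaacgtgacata
Slc10a4: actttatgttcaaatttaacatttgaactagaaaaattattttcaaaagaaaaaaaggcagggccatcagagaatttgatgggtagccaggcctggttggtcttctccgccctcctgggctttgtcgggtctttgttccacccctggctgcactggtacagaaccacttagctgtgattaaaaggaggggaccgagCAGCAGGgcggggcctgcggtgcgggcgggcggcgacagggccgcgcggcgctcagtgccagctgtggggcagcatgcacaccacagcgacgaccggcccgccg
Chat: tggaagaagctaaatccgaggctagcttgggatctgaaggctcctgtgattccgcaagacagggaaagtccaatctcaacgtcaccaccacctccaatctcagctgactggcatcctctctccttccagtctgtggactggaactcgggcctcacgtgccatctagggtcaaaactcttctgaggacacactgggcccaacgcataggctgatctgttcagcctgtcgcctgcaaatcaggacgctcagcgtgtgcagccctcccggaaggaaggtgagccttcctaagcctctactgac

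Both strands of the 8 windows were searched for the ZIC core CAGCAGG, which reads as CCTGCTG on the other strand, for the homeodomain core TAATTA, which reads the same on both, and for TATAAA, which reads as TTTATA. No match overlapped a match to another motif in these windows, and 10.5%, 5.29% and 13.6% of the 32851 windows in the table held them. Among the 8, CAGCAGG was found in Slc10a4 alone, starting at position -54 from the start site, and TATAAA in Slc5a7 alone, at -187. TAATTA was found in 0 of the 8 windows. CG dinucleotides numbered 31 in the Zic1 window and 37 in the Isl1 window, against a median of 7 over all windows. The windows of Zic1 and Zic4 were 2703 bases apart. In the GENCODE M21 annotation the 2 genes overlap on opposite strands and share 60 exonic bases, 1.05% of those of Zic1. Whether the reads were counted by strand is not given in the sources used here, so reads from that stretch cannot be assigned. Slc18a3, the gene of the vesicular acetylcholine transporter, lies within the span of Chat on the same strand and shares 0 exonic bases with it.

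The libraries held 12159941 to 18322559 counted reads. Values are also given as CPM, read counts brought to a common library size with TMM factors, which adjust for library composition. All 12 markers of hippocampal principal neurons were measured, with a summed level of 1492 to 1757 CPM in controls and 1602 to 1860 CPM in knockouts. The targeted gene, Lpcat3, averaged 27.6 ± 2.22 CPM over controls (SD, n = 6) and 20.2 ± 2.83 CPM over knockouts (SD, n = 7). The ranges did not overlap, but the lowest control, at 24.73 CPM, was close to the highest knockout, at 24.35 CPM. Of the 17549 genes tested, 0.274% had every control above every knockout. Lpcat3 was not called in edgeR's quasi-likelihood test (log2 fold change -0.45, SE 0.088, adjusted p = 0.096). Controls 4, 2 and 3 had the highest summed levels of the septal genes, and control 4 stood apart from all 12 others in Chat, Slc5a7 and Lhx8. In bulk tissue, more cells of a type and more RNA per cell cannot be told apart.

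Zic1 (ENSMUSG00000032368, chromosome 9) had 66 to 304 reads in controls, with a median of 150.5, and 53 to 99 reads in knockouts, with a median of 83. The highest libraries were control 4 at 24.5 CPM (counting interval 21.8 to 27.5), control 2 at 20.9 CPM (18.6 to 23.4) and control 3 at 12.1 CPM (10.4 to 13.9). The intervals, here and below, are 95% exact Poisson intervals of the library's count and cover counting error only. Those of controls 4 and 2 overlapped each other and lay above that of control 3. Control 5, at 7.77 CPM, came next, and controls 1 and 6, at 6.01 and 4.48 CPM, lay inside the knockouts' range of 3.21 to 6.84 CPM.

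Zic4 (ENSMUSG00000036972, chromosome 9) ranked the top 4 libraries in the same order. It had 55 to 164 reads in controls, with a median of 98.5, and 38 to 78 in knockouts, with a median of 67. Control 4 was at 13.5 CPM, control 2 at 11.3, control 3 at 6.96 and control 5 at 6.21, against 2.63 to 5.71 CPM in knockouts. The interval of control 3 (5.74 to 8.37) overlapped those of control 5 (4.96 to 7.69) and knockout 7 (4.50 to 7.13), so its place in the order was within counting error. The spread from lowest to highest library was narrower for Zic4 than for Zic1.

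Ecel1 (ENSMUSG00000026247, chromosome 1) encodes a membrane metalloprotease of neurons. It had 46 to 265 reads in controls, with a median of 111.5, and 39 to 83 in knockouts, with a median of 51. Control 4 was at 21.8 CPM and control 2 at 16.6 CPM, and their counting intervals (19.2 to 24.5 and 14.6 to 18.8) did not overlap. Controls 3 and 5 were level with each other at 7.58 and 7.40 CPM, both above the highest knockout, knockout 7, at 5.41 CPM. Their intervals (6.3 to 9.04 and 6.02 to 9) overlapped that of knockout 7 (4.24 to 6.8).

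Ret (ENSMUSG00000030110, chromosome 6) encodes the receptor tyrosine kinase for ligands of the GDNF family. It had 34 to 142 reads in controls, with a median of 81, and 28 to 56 in knockouts, with a median of 43. Control 4 stood at 11.7 CPM (9.82 to 13.7), above controls 2 and 3 at 6.81 and 6.47 CPM. Controls 1 and 5 were at 4.40 and 4.07 CPM, also above the highest knockout at 3.44 CPM, and control 6 at 2.31 CPM was inside the knockout range. For Ret, then, 5 of 6 controls lay above every knockout, although the intervals of controls 1 and 5 overlapped that of the highest knockout (2.60 to 4.47).

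**Figure D1:**
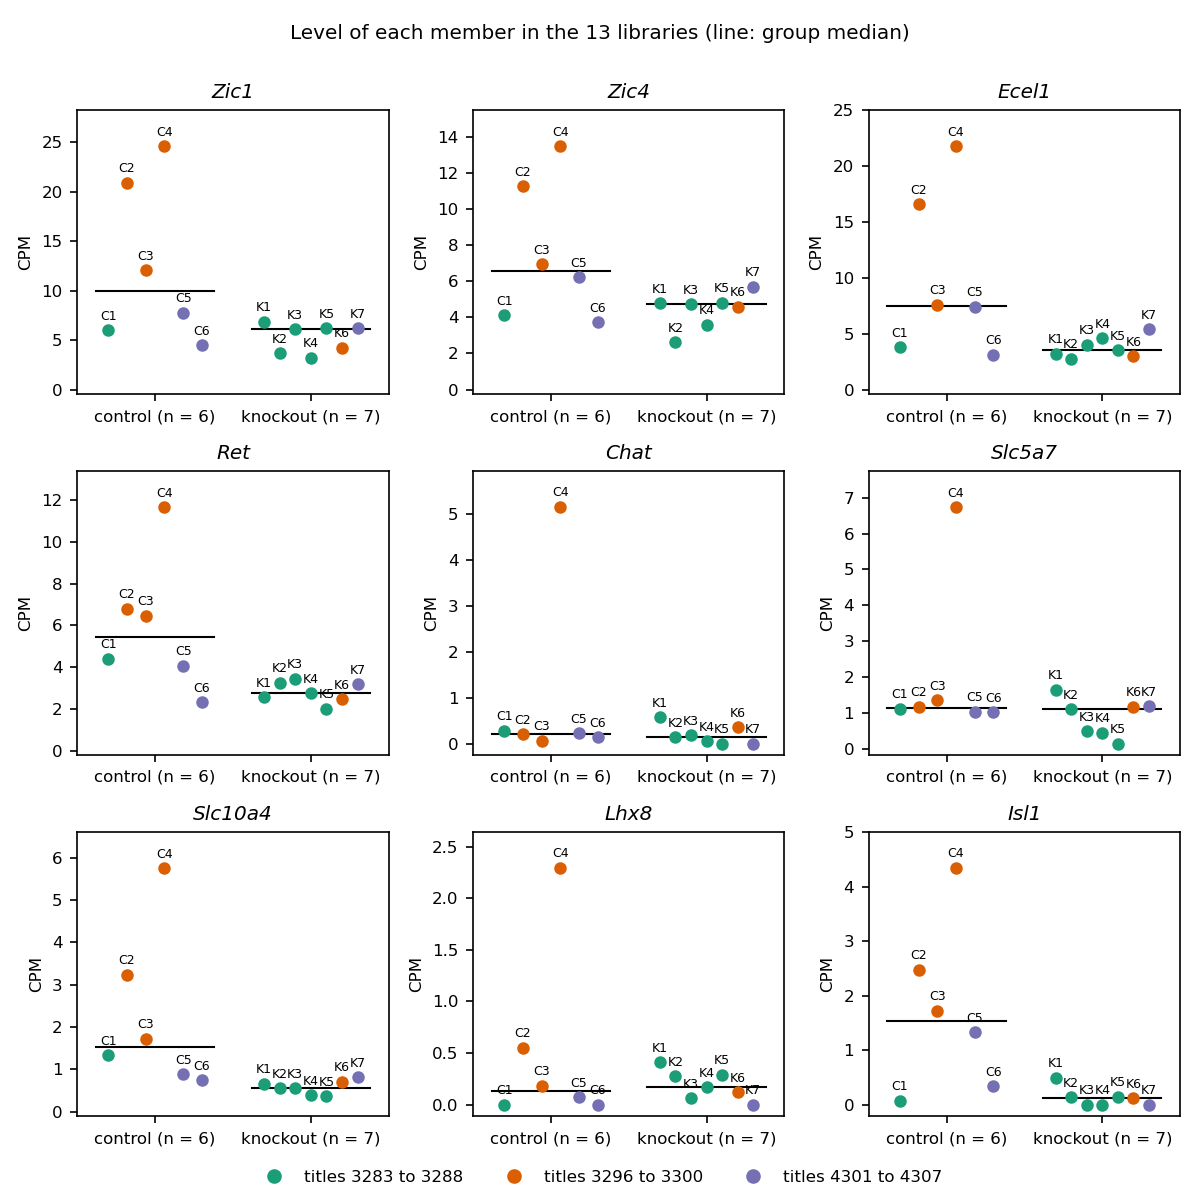
Level of each of the 9 genes in CPM (vertical axes, linear, a separate scale for each gene) in the 6 control (C) and 7 knockout (K) libraries, with a line at each group's median and colours for the run of title numbers. C2, C3 and C4 are the highest for Zic1, Zic4, Ecel1, Ret, Slc10a4 and Isl1, whereas for Chat and Slc5a7 C4 alone is high, at 5.17 and 6.73 CPM.

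The cholinergic genes split into those that followed the septal genes and those raised in control 4 alone. Slc10a4 (ENSMUSG00000029219, chromosome 5), which encodes a vesicular protein of cholinergic and monoaminergic neurons, had 70 reads in control 4, 47 in control 2 and 28 in control 3. The other controls had 11 to 19 reads and the knockouts 5 to 12, with a knockout median of 8. In CPM these were 5.75, 3.23 and 1.73 for controls 4, 2 and 3, and 0.360 to 0.815 over the knockouts. Control 1 was at 1.33 CPM and control 5 at 0.888 CPM, so 5 of 6 controls lay above every knockout, while control 6, at 0.747 CPM, was inside the knockout range. The intervals of controls 1, 3 and 5 overlapped that of the highest knockout, knockout 7 (0.407 to 1.46), and those of controls 4 and 2 did not.

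Isl1 (ENSMUSG00000042258, chromosome 13), a LIM homeodomain transcription factor of cholinergic and striatal lineages, had 53 reads in control 4, 36 in control 2, 28 in control 3 and 18 in control 5. Control 6 had 5 reads and control 1 had 1. Knockouts had 0 to 6 reads with a median of 2, and 3 of the 7 had 0 reads, which allows up to 3 counts in each. In CPM, controls 4, 2, 3 and 5 stood at 4.35, 2.48, 1.73 and 1.33 and the highest knockout, knockout 1, at 0.495 (0.182 to 1.08). The interval of control 5 (0.789 to 2.10) overlapped that of knockout 1, and those of controls 4, 2 and 3 did not.

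Chat (ENSMUSG00000021919, chromosome 14), choline acetyltransferase, had 63 reads in control 4. The other 5 controls had 1 to 4 reads and the knockouts 0 to 7, with 2 knockouts at 0. Control 4 was at 5.17 CPM (3.97 to 6.62), 8.96 times the next highest library, knockout 1, at 0.577 CPM (0.232 to 1.19). Controls 2 and 3, with high Zic1, had 3 and 1 reads of Chat, and their intervals reached no higher than 0.603 CPM. Outside control 4 the 2 groups were not distinguishable at this depth.

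Slc5a7 (ENSMUSG00000023945, chromosome 17), the high-affinity choline transporter of cholinergic terminals, had 82 reads in control 4 and 14 to 22 in the other controls. Knockouts had 2 to 20 reads with a median of 16. Control 4 was at 6.73 CPM (5.35 to 8.36), and the other 5 controls, the lowest of them at 1.02 CPM, all lay within the knockouts' range of 0.144 to 1.65 CPM. Knockout 5 was the lowest library, at 2 reads.

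Lhx8 (ENSMUSG00000096225, chromosome 3), a LIM homeodomain factor needed for forebrain cholinergic neurons, had 28 reads in control 4 and 8 in control 2. The other controls had 0 to 3 reads and the knockouts 0 to 5. Control 4 was at 2.30 CPM (1.53 to 3.32), and the interval of control 2 (0.238 to 1.08) overlapped that of the highest knockout, knockout 1 (0.134 to 0.962). Only control 4 was thus distinguishable from the knockouts.

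Per kilobase of exon, which allows levels to be compared between genes, the mean level in controls was highest for Ecel1 (2.87 CPM per kb) and Zic1 (2.22), followed by Slc10a4 (1.08). It was lowest for Chat (0.215) and Lhx8 (0.205), and without control 4 these means were 0.0385 for Chat and 0.0640 for Lhx8. In knockouts Ecel1 (1.08) and Zic1 (0.915) again led, and Chat (0.0397) and Isl1 (0.0323) were lowest. Exon lengths were from GENCODE M21, which can differ from the authors' annotation.

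Summed over the 4 septal genes, the level was 71.4 CPM in control 4, 55.6 in control 2 and 33.1 in control 3, and 12.3 to 25.5 CPM in the other 10 libraries. Summed over the 5 cholinergic genes it was 24.3 CPM in control 4, 7.64 in control 2, 5.05 in control 3 and 0.935 to 3.79 CPM in the others. From control 2 to control 4 the septal sum thus differed less than the cholinergic sum. Reads of the cholinergic genes made up 25.4% of the reads of all 9 genes in control 4 (296 of 1166, 95% exact binomial interval 22.9 to 28.0%). In control 2 the share was 12.1% (111 of 919, upper limit 14.4%) and in control 3 it was 13.2% (10.7 to 16.2%). The share in the remaining controls was 12.2 to 14.1%, so controls 2 and 3 had higher sums of both kinds at a ratio like that of the controls with few. This did not hold for each cholinergic gene. Slc10a4 and Isl1 had 47 and 36 reads in control 2 and 28 and 28 in control 3, whereas Chat had 3 and 1. Among knockouts the share ran from 5.35% in knockout 5 to 17.9% in knockout 1, with intervals that overlapped that of control 4 in knockout 1 alone (13.4 to 23.1%).

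**Figure D2:**
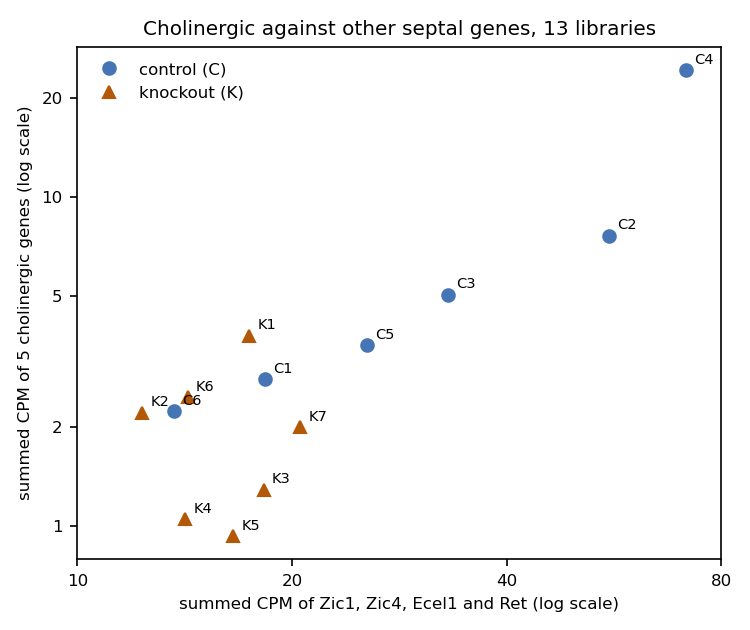
Summed CPM of the 5 cholinergic genes (vertical, log scale) against the summed CPM of Zic1, Zic4, Ecel1 and Ret (horizontal, log scale) in the 13 libraries, circles for controls and triangles for knockouts. C4 is at the top right at 71.4 and 24.3 CPM, followed by C2 and C3, and the other 10 libraries reach at most 25.5 CPM on the horizontal axis.

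**Figure D3:**
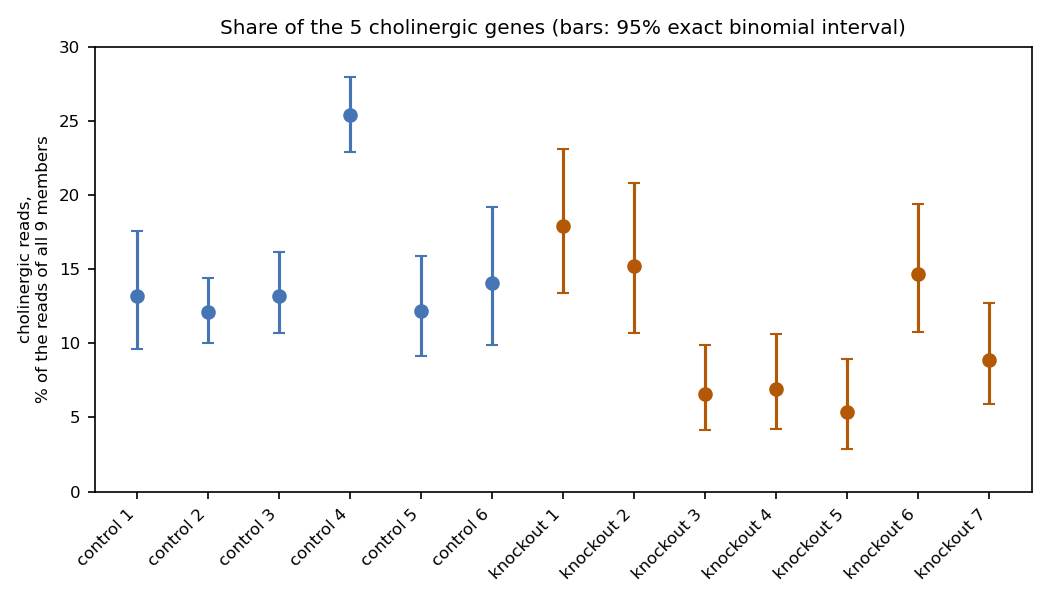
Reads of the 5 cholinergic genes as a percentage of the reads of all 9 genes (vertical axis) in each library, with 95% exact binomial intervals. Control 4 is at 25.4% and the other 5 controls lie between 12.1 and 14.1%.

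Correlations over the 13 libraries describe the same split. They were computed on log2 CPM (prior count 2) and carry no test, since the genes were chosen on these values. The points also share library depth and group. Within the 4 septal genes, Pearson r was 0.80 to 0.96 over 6 pairs, with Zic1 and Zic4 at 0.96, and without control 4 it was 0.66 to 0.93. Slc10a4 had r of 0.86 to 0.93 with the septal genes, and 0.76 to 0.87 without control 4. For Isl1 the values were 0.76 to 0.86, and 0.62 to 0.79 without it.

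Chat, by contrast, had r of 0.51 to 0.61 with the septal genes over all 13 libraries and of -0.13 to 0.07 once control 4 was left out. Chat and Slc5a7 had r of 0.82, and 0.55 without control 4. Lhx8 and Slc5a7 went from 0.52 to -0.05, and Lhx8 and Chat from 0.71 to 0.17. Outside control 4, however, Chat had 0 to 7 reads per library and Lhx8 0 to 8. At such counts a low r cannot be told from counting error. The 10 pairs within the cholinergic genes had a median r of 0.67, and of 0.33 without that library. The mean log2 CPM of the 5 cholinergic genes and that of the 4 septal genes had r of 0.84 (Spearman's rho 0.54, n = 13). Without controls 2 and 4, the libraries farthest from the median septal value, r was 0.45, so the relation rested largely on them.

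**Figure D4:**
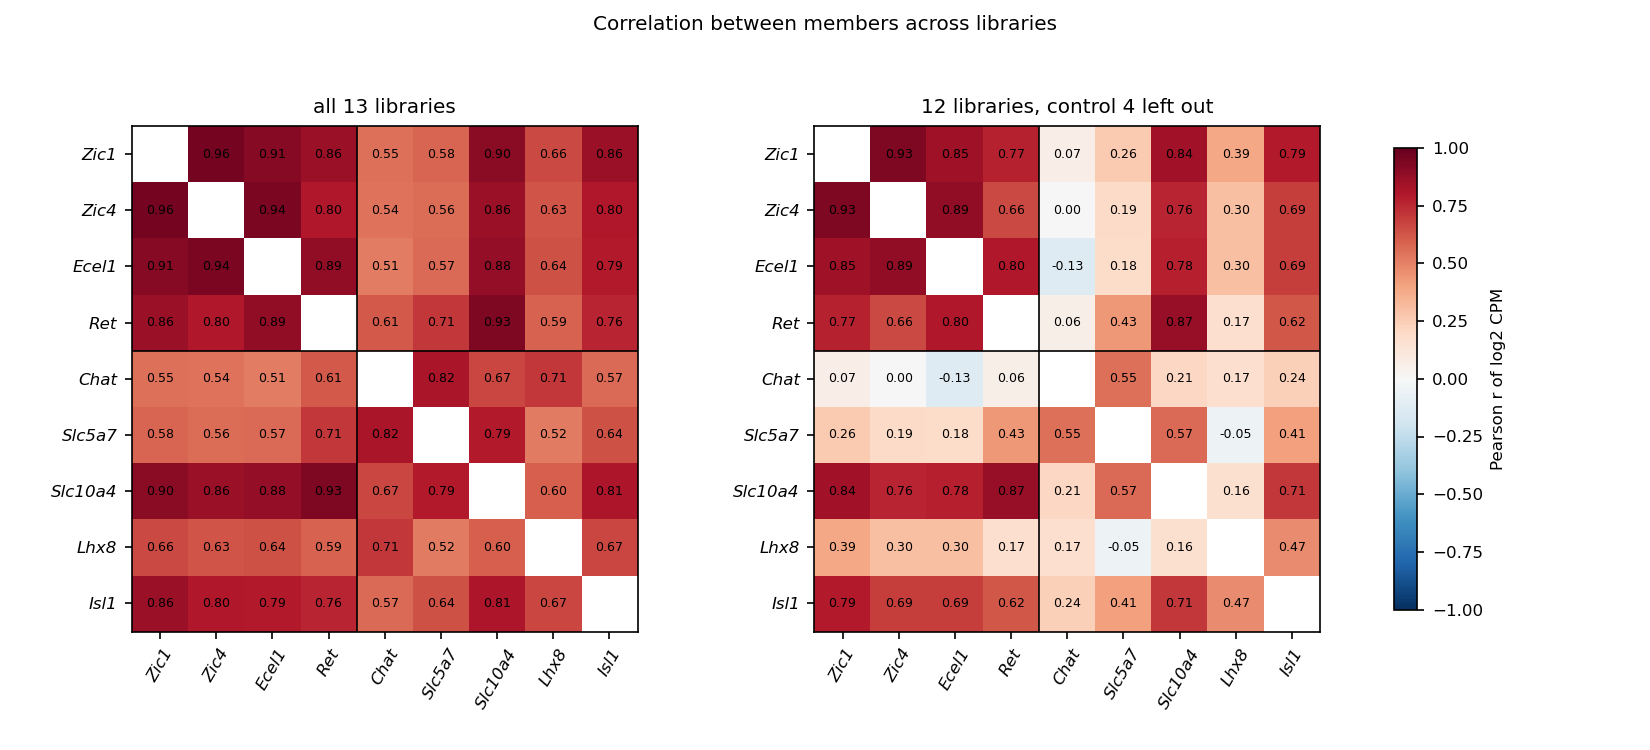
Pearson r of log2 CPM between each pair of the 9 genes (rows and columns, septal genes first, lines separating them from the cholinergic genes) over all 13 libraries at left and over 12 without control 4 at right. Slc10a4 and Isl1 keep r of at least 0.62 with the 4 septal genes at right, whereas Chat lies between -0.13 and 0.07. Chat had 0 to 7 reads in these 12 libraries, where a low r cannot be told from counting error.

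The comparison of knockout with control asks how loss of Lpcat3 in blood-derived cells changes the hippocampus with amyloid. Because the genes were chosen on these counts, their group differences are given without a test. All 9 had negative log2 fold changes (knockout minus control) with all libraries, and 6 of the 9 passed the filter on low counts. Chat, Lhx8 and Isl1 did not pass it, and for Chat and Lhx8 the lower mean in knockouts rested on control 4 alone. The mean level of Slc10a4 was 2.28 ± 1.92 CPM (SD, n = 6) against 0.576 ± 0.166 CPM over the knockouts (SD, n = 7), with a log2 fold change of -1.96 (SE 0.43). Ecel1 was at 10.03 ± 7.49 and 3.79 ± 0.946 CPM, with a log2 fold change of -1.39 (SE 0.36). Zic1 was at 12.6 ± 8.31 and 5.21 ± 1.46 CPM (-1.28, SE 0.33). In each of these the SD of the controls was several times that of the knockouts.

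Slc5a7 had a log2 fold change of -1.21 (SE 0.51), Ret of -1.07 (SE 0.27) and Zic4 of -0.79 (SE 0.26). For the genes below the filter, mean levels in controls and knockouts were 1.01 ± 2.04 and 0.187 ± 0.212 CPM for Chat, 0.518 ± 0.896 and 0.189 ± 0.144 CPM for Lhx8, and 1.72 ± 1.57 and 0.128 ± 0.175 CPM for Isl1 (SD, n = 6 and 7). Without control 4 the control means were 0.181 ± 0.0841 CPM for Chat, 0.162 ± 0.230 CPM for Lhx8 and 1.19 ± 0.992 CPM for Isl1 (SD, n = 5), so that those of Chat and Lhx8 were slightly below the knockout means. None of the 9 had controls and knockouts apart, against 0.274% of the 17549 genes tested that had every control above every knockout. At least 3 controls lay above every knockout for 5 of the 6 that passed the filter, against 12.5% of the genes tested, and also for Isl1, which did not pass it. In edgeR's quasi-likelihood test across 17549 genes, 0 of the 6 that passed the filter had an adjusted p under 0.05 (0.0228% of all genes did in either direction, 0.0057% with a lower level in knockouts) and 6 of 6 had an unadjusted p under 0.05 with a lower level in knockouts (7.25% of all genes did). DESeq2 called 1, Ret, of the 4 to which it gave an adjusted p, against 0.782% of 12785 genes that it called lower in knockouts. Nothing is read from these counts, because the choice of genes used the same values.

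The sample numbers in the titles fall into 3 runs, whose meaning the labels do not give. Run 3296 to 3300 holds controls 2, 3 and 4 and knockout 6. In this run the mean log2 CPM of the septal genes was 3.60 over the 3 controls and 1.84 in knockout 6, which lay within the range of the other knockouts. The within-run difference, knockout minus control, was -1.76 there, -0.26 in run 3283 to 3288 (1 control, 5 knockouts) and 0.13 in run 4301 to 4307 (2 controls, 1 knockout). The corresponding cholinergic differences were -1.70, -0.18 and -0.79. The last of these came from genes at the floor, as knockout 7 had 0 reads of Chat, Lhx8 and Isl1. Those genes differed in that run by -1.20, -0.31 and -2.62, against 0.18 for Slc5a7 and 0 for Slc10a4. With the samples of run 3296 to 3300 left out, the log2 fold change was -0.18 (SE 0.24) for Zic1, -0.09 (SE 0.23) for Zic4, -0.26 (SE 0.26) for Ecel1 and -0.31 (SE 0.23) for Ret. It was -0.37 (SE 0.50) for Slc5a7 and -0.83 (SE 0.36) for Slc10a4. Each of these 6 was closer to 0 than with all libraries. With control 4 alone left out, Slc5a7 went from -1.21 to -0.39 (SE 0.38), whereas Zic1 stood at -0.98 (SE 0.30) and Slc10a4 at -1.46 (SE 0.35).

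**Figure D5:**
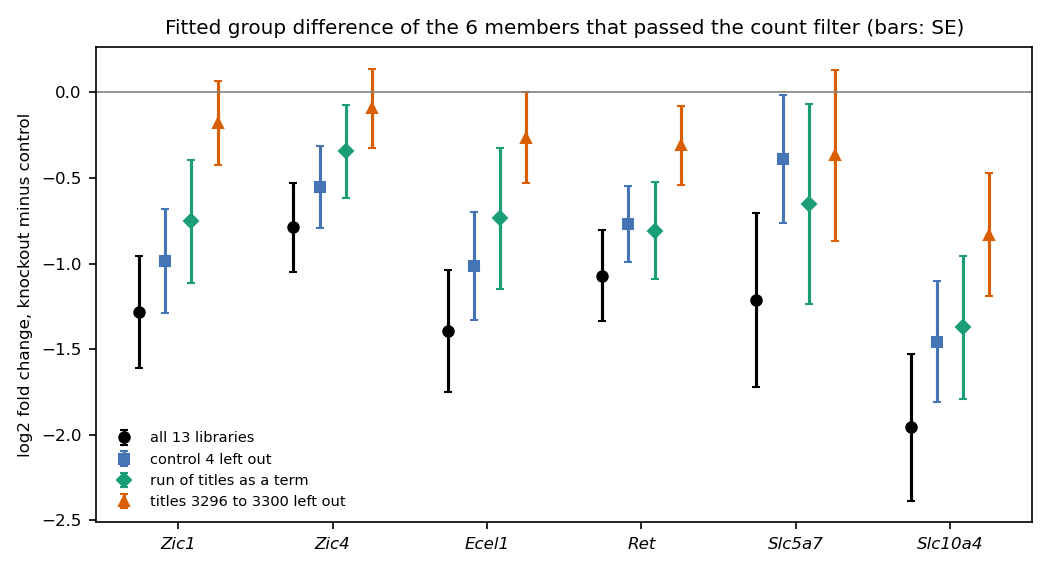
Log2 fold change, knockout minus control, of the 6 genes that passed the count filter (vertical axis, bars are SE) with all 13 libraries, without control 4, with the run of title numbers as a term, and without titles 3296 to 3300. Zic1 moves from -1.28 with all libraries to -0.18 without titles 3296 to 3300, and Slc5a7 from -1.21 to -0.39 without control 4.

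Other genes of the same neurons and regions were read from 16 lists holding 163 genes, of which 129 passed the filter. None was called in edgeR's quasi-likelihood test at an adjusted p of 0.05. At an unadjusted p under 0.05, 21 were lower and 8 higher in knockouts, and DESeq2 called 5, among them Neurod2, Opalin, Pvalb and Tyrobp. Lists are described by their median log2 fold change, beside -0.004 and 51.3% negative over all genes tested. Genes named from the lists are those whose levels correlated most strongly with the septal mean, except where a sentence names a list's members without values.

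Other genes of the septal region differed in how far they varied with the septal mean. Of the 11 in the list, Hcrtr1 had r of -0.15, Trpc4 0.15, Gal 0.30, Crhr2 0.35 and Tacr1 0.42, and the genes described next are among those with the highest r. In the septal region list 9 of 10 genes tested were negative and the median was -0.34. Zic5, a paralogue of Zic1, had 258, 211 and 255 reads in controls 2, 3 and 4, 132 to 154 in the other controls and 91 to 216 in knockouts (r = 0.85 with the septal mean), so that knockout 3, at 216, reached their range. Dlk1, an inhibitor of Notch signalling, had 99 to 200 reads in knockouts and 101 to 193 in controls (r = 0.80). The list's sum was 166 CPM in control 4, 158 in control 2 and 129 in control 3, and 102 to 124 CPM in the other 10 libraries.

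Among other genes of cholinergic neurons, Slc18a3, the vesicular acetylcholine transporter, had 12 reads in control 4 and 0 to 4 elsewhere. As for Chat, control 4 was the highest library, and Slc18a3 was below the count filter. The list of cholinergic synapse and acetylcholine handling, which holds neither Chat nor Slc5a7, had a median log2 fold change of -0.04 over 9 genes tested. Its sum was 478 to 509 CPM in controls and 494 to 521 in knockouts. Prima1, which anchors acetylcholinesterase, had r of 0.58 with the septal mean (log2 fold change -0.42, SE 0.22, adjusted p = 0.45 in edgeR). Basal forebrain development and neurotrophin genes had a median of 0.02 over 7.

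On the receiving side, Chrm2, the muscarinic receptor that is also a presynaptic autoreceptor, had 184, 167 and 193 reads in controls 2, 3 and 4, 116 to 153 in the other controls and 94 to 163 in knockouts (r = 0.89). Chrm4 and Chrm1 ran the opposite way (r = -0.68 and -0.65). Their log2 fold changes were -0.41 for Chrm2 (SE 0.12, adjusted p = 0.20), 0.43 for Chrm4 (SE 0.15, adjusted p = 0.25) and 0.14 for Chrm1 (SE 0.051, adjusted p = 0.26, edgeR). The 12 acetylcholine receptor genes tested had a median of 0.02. Of the 9 Ret ligands and co-receptors, 3 passed the filter (median -0.09), and Gfra2, the co-receptor for neurturin, had the highest r at 0.72.

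Markers of neighbouring regions and other cells were read beside these values, and their part in the septal result was not tested. The 10 interneuron markers summed to 1049 CPM in control 4, 930 in control 3 and 895 in control 2, and to 759 to 868 CPM in the other 10 libraries. Gad2, which makes GABA, had r of 0.85 with the septal mean and 0.91 with the cholinergic mean. In the striatum list 12 of 12 genes were negative (median -0.21), but the sum was 228, 171 and 200 CPM in controls 2, 3 and 4 and reached 209 CPM in control 5 and 208.5 CPM in knockout 3. Drd2 had 85, 55 and 65 reads in controls 2, 3 and 4, against 20 to 49 in all others. The thalamus list had a median of 0.04 and its sum was highest in control 4 (254 CPM), followed by control 5 (241). Prkcd in that list had 980, 935 and 1002 reads in controls 2, 3 and 4 against 467 to 684 elsewhere. Its r with the septal mean was 0.89, and Plekhg1, Slc17a6 and Tcf7l2 also had positive r. Rgs16, Lef1, Rora, Ntng1 and Gbx2, of the same list, had negative r.

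Choroid plexus markers varied widely in both groups. Their sum was 5105 CPM in control 2, 451 in control 3 and 406 in control 4, and ran from 356 to 10060 CPM in knockouts (all 12 tested, median log2 fold change 0.09). Meningeal fibroblast markers summed to 130, 132 and 101 CPM in controls 2, 3 and 4 and to 110 to 206 CPM in the others (10 tested, median 0.07). Medial habenula markers, from another cholinergic nucleus, summed to 24.1 to 29.4 CPM in controls and 24.2 to 33.9 in knockouts, with control 4 at 26.4 (5 tested, median 0.00). Hypothalamic markers summed to 8.29 CPM in control 4, the highest, and to 2.84 to 5.59 elsewhere, with 1 gene tested, Cartpt (log2 fold change -1.08).

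Brainstem cholinergic and monoaminergic markers summed to 34.4 CPM in control 4 and 21.4 to 29.9 CPM elsewhere, with Hoxb3 at 0 reads in all libraries and a median of -0.09 over 4 tested. Hippocampal principal neuron markers had a median of 0.11 over 12. The most negative r with the septal mean were those of Neurod2 (-0.72) and Cpne6 (-0.71). Bok, Spink8, Wfs1 and Pou3f1 had positive r, and the rest of the list had negative r. Oligodendrocyte markers summed to 6011 to 7682 CPM in controls and 5752 to 7589 in knockouts (8 tested, median -0.09). Microglial markers summed to 855 to 995 and 787 to 938 CPM (10 tested, median -0.14).

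The genes outside these lists with levels most like the septal mean included Pld5, Ngb, Ccp110, Glp1r, Baiap3, Cacna2d2, Magel2, Col6a3 and Klhl13, with Pearson r of 0.90 to 0.95 over 13 libraries. Glp1r, the receptor for glucagon-like peptide 1, had 313, 244 and 284 reads in controls 2, 3 and 4 and 77 to 105 in all other libraries. Pld5 had 187, 157 and 185 reads there and 35 to 92 elsewhere, and Col6a3, a collagen chain, 143, 99 and 145 reads against 19 to 53. For each of these 3, controls 2, 3 and 4 lay above all other libraries, as with Zic1. The septal mean by which the genes were chosen is itself highest in those libraries. The choice thus favoured this order, and nothing is read from it.

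Those most like the cholinergic mean were Dlx1, Cacna2d2, Mid2, Megf10, Galnt13, Arhgap6, Ccdc88b, Thrb, Zcchc12 and Tmem91, with r of 0.86 to 0.94. Dlx1, a homeobox gene of forebrain GABAergic lineages, had 263, 203 and 255 reads in controls 2, 3 and 4 and 123 to 203 elsewhere. Arhgap6 had 267, 212 and 258 reads there and 85 to 138 elsewhere. Cacna2d2, a calcium channel subunit, was among the 10 nearest to both means, with 449, 417 and 490 reads in controls 2, 3 and 4 and 205 to 307 elsewhere. All 10 had their highest CPM in control 4, where the cholinergic mean by which they were chosen is also highest, so nothing is read from this. Raw counts in controls 2 and 3 were close to those in control 4, but their libraries were larger (14379560 and 16403770 counted reads against 12183608). The 19 genes nearest to either mean had adjusted p of 0.14 to 0.54 for knockout against control in edgeR.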

How the data were processed

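The deposited table holds raw read counts per Ensembl gene, not normalized, in 13 columns matched to samples by title number. Per the submitters' processing notes, the software was R 4.2.0 with DESeq2 1.36.0, featureCounts 2.0.3 and STAR 2.7.10a, and the build GRCm39, without stated roles. Which annotation was counted, whether by strand, and how multimapped reads were handled is not given in the sources used here. Libraries were made with a SMART-Seq mRNA kit, per the labels' protocols, so reads are PCR copies and intervals and floors (3 counts for a count of 0) cover counting error only. Library totals were 12159941 to 18322559 counts. Symbols matched 52073 of 56980 identifiers.

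Knockouts were compared with controls by the quasi-likelihood test of edgeR 4.0.16 (R 4.3.3), with TMM factors, filterByExpr by group and no covariate, and p-values were adjusted by Benjamini-Hochberg over 17549 genes at 0.05, after a test on simulated data. CPM used the TMM factors; log2 CPM used a prior count of 2. The alternatives were DESeq2 1.42.0, RLE factors, library size alone, no count filter, the title runs as a term, each library left out, Spearman's rho, group-centred values, Ret moved to the cholinergic genes and a prior count of 0.5. Leaving out each title run, and the means of Chat, Lhx8 and Isl1 without each library, were chosen after seeing the data. The members and lists were chosen with earlier results of these data known. Genes named were all members, Lpcat3, up to 3 genes per list with the largest absolute r to the septal mean, and the 10 other genes nearest to each mean. Genes named because a tool called them (Neurod2, Opalin, Pvalb, Tyrobp, C1qc), Hoxb3, with 0 reads, and the septal region genes of low r (Hcrtr1, Trpc4, Gal, Crhr2, Tacr1) were named after their values were seen. So were the thalamus and hippocampal principal neuron genes for which only the sign of r is given. Some genes that the rule names are not reported here.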

Additional observations from a re-analysis of the deposited data

Results flagged for a closer look

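Each group's highest and lowest library was set against the others for the genes named here, and 12 of 144 gene and group combinations had a library whose gap to the next exceeded Dixon's 95% critical value (chance alone gives about 1 in 20). That rate holds for genes chosen without their values. The genes here were mostly chosen on these counts or by correlation with them, so nothing is read from the number of flags. Control 4 was the highest control in 5 of them. It was at 5.17 CPM for Chat (next highest control 0.279), 6.73 CPM for Slc5a7, 2.30 CPM for Lhx8 (next 0.550), 0.985 CPM for Slc18a3 (next 0.222) and 36.8 CPM for Mid2 (next 29.6). Of these genes, Chat, Slc5a7 and Slc18a3 encode choline acetyltransferase, the choline transporter and the vesicular acetylcholine transporter. Lhx8 encodes a factor of the same neurons. Zic1, Zic4, Ecel1, Ret, Slc10a4 and Isl1 had no such library among controls, where more than 1 library was high.

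Among the knockouts, knockout 1 was the highest for Isl1 at 0.495 CPM (6 reads, next 0.144) and for Thrb at 67.7 CPM (next 59.1). Knockout 4 was the highest for Baiap3 at 15.3 CPM (next 11.7), and knockout 7 for Ngb at 4.89 CPM (next 3.60). Knockout 3 was the lowest for Neurod2 at 98.9 CPM (next 116). Among the controls, control 1 was the highest for Avp at 1.40 CPM (20 reads, next 0.272) and control 5 for Lum at 17.5 CPM (next 9.49).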

How the results depend on the processing

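Over all genes, edgeR called 4 between the groups, DESeq2 181 and edgeR without a count filter 66. Leaving out single libraries gave 3 to 80, the 80 without control 1 and 7 without knockout 3. Of the listed genes, 0 were called in edgeR, 5 by DESeq2 and 3 without a filter (Opalin and Tyrobp among them), and 0 to 2 with a library left out (2 without knockout 3, Neurod2 among them, and 2 without control 1, C1qc among them). Of the septal and cholinergic genes, 1 was called by DESeq2 (Ret, of 4 with an adjusted p), 5 without a filter (Ecel1, Isl1, Ret, Slc10a4 and Zic1), 1 without control 1 (Slc10a4), 2 without titles 4301 to 4307 (Ret and Slc10a4) and 0 under the other settings. Over all genes, DESeq2 called 0.782% of 12785 lower in knockouts. The other 3 settings called 45 of 38471, 40 of 17757 and 3 of 17866 lower. Nothing is read from these calls, because the choice of genes used the same counts. The log2 fold changes of the 6 that passed the filter stayed negative in all 126 values recomputed, from -2.45 to -0.09, with 20 moved by over 1 SE. Every setting reused libraries on which the genes were chosen, so the stable sign is no independent support. Without titles 3296 to 3300, those of Zic1, Zic4, Ecel1 and Slc5a7 lay within 1 SE of 0, and those of Ret and Slc10a4 did not. With the title runs as a term the log2 fold changes were -0.75 for Zic1, -0.34 for Zic4, -0.74 for Ecel1, -0.81 for Ret, -0.65 for Slc5a7 and -1.37 for Slc10a4. For Chat and Lhx8, below the filter, the difference of mean CPM (knockout minus control) was -0.826 and -0.329 with all libraries and 0.00578 and 0.027 without control 4, and with other single libraries left out it stayed negative, reaching -1.02 for Chat and -0.433 for Lhx8. For Isl1 it was -1.92 to -1.06 with a library left out. The cause of these changes was not tested.

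The correlation of the cholinergic and septal means (r = 0.84) was 0.54 as Spearman's rho, 0.76 on deviations from group means, 0.80 with a prior count of 0.5, 0.70 without control 4 and up to 0.88 without another library. Depth limits Chat, Lhx8 and Isl1 most, with 0 to 8 reads in most libraries. No paired analysis was possible because the title numbers are not shared between groups.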
